A study of Chlorocebus aethiops with 3 samples.

Results

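The mRNAs described here encode 10 regulators of apoptosis: the survival factors MCL1, BCL2 and BCL2L1, the pore-forming proteins BAK1 and BAX, the BH3-only proteins BID and PMAIP1, and the inhibitor of apoptosis proteins (IAPs) XIAP, BIRC2 and BIRC3. They were chosen by RefSeq accession, as family members of which several carry structured or IRES-like leaders. The array held probes for 32695 identifiers, among them 8 of the 10 accessions, and those 8 had 10 of the 41000 probes, printed as 37 spots on each array. No probe carried the accessions listed for BAX (NM_004324) and BID (NM_001196), which were therefore not analysed here. Of the 10 probes, 8 were tested, representing 6 of the mRNAs. The files pair probes with accessions only, and the symbols are those given with the choice of members.

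RNA came from the heavy polysome fractions of COS-7 cells, an African green monkey kidney line that is fibroblast-like and expresses the SV40 large T antigen. Cells were transfected in 2 rounds with siRNAs at 0.5 nM, either against RNA helicase A (RHA, the product of DHX9, a DEAH-box helicase that acts on structured RNA) or with a scrambled sequence. In the first round, 4 hours without serum were followed by 24 hours with it, and the second repeated the transfection. Cytoplasmic lysates were run on sucrose gradients of 15% to 45%, and heavy polysomes, which hold mRNAs carrying many ribosomes, were pooled. On each of the 3 arrays, 1 per biological replicate, the knockdown RNA was labelled with Cy5 and the scrambled-siRNA control with Cy3. No array had the dyes swapped, so a dye effect and the knockdown cannot be told apart. The siRNAs and the probes were both designed on human sequence, and the cells are from a monkey. A ratio compares the share of an mRNA within the heavy polysome RNA, so a change in its total amount and a change in its ribosome loading cannot be told apart, and neither can fewer cells with the message and less message per cell.

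Proteins of the BCL2 family meet at the mitochondrial outer membrane. BAK1 and BAX form the pores through which cytochrome c escapes, MCL1, BCL2 and BCL2L1 (BCL-XL) hold them in check, and BH3-only proteins such as BID and PMAIP1 (NOXA) relieve that restraint. IAPs act further on: XIAP binds and inhibits caspases directly, whereas BIRC2 (cIAP1) and BIRC3 (cIAP2) are ubiquitin ligases that act mainly in TNF receptor and NF-kappaB signalling. The leaders of XIAP, BIRC2 and BCL2 mRNAs have been studied as sites of cap-independent initiation, and MCL1 is known as a short-lived protein made from a short-lived mRNA.

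Across the whole array, the median spot intensity of a probe was between 30 and 37 in the control channel and between 71.5 and 83.5 in the knockdown channel. Replicate 3 was the brightest, with 50.7% of probes well above background in the control channel against 37.5% and 38.7% on replicates 1 and 2. The probes for RHA (NM_001357) checked the knockdown. Its 2 tested probes had mean log2 ratios of -0.33 ± 0.37 and -0.28 ± 0.29 (SD, n = 3), at limma adjusted p of 0.210 and 0.217, so a lower RHA message in heavy polysomes was not established. Of 6 mesenchymal marker accessions on the array, 4 (listed for VIM, THY1, S100A4 and LGALS1) exceeded background on all arrays with either dye. The markers listed for CDH1, PTPRC, PECAM1 and SYP were above background on no array. Among the 7 markers of other cell types, the epithelial one listed for EPCAM exceeded background throughout, with control intensities of 43.5, 48 and 128. Those listed for CD3E and ALB exceeded it with knockdown RNA on 3 arrays and with control RNA on 1 and 2. The mesenchymal markers listed for FN1 and COL1A2 did so with control RNA on 1 array each, and with knockdown RNA on 3 and 0.

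XIAP and BIRC3 were more abundant in heavy polysomes of knockdown cells, by 1.74-fold and 1.42-fold. The other 6 tested probes of the family did not pass the test, and none was called fallen. MCL1 and BAK1 had mean ratios below 1, and BCL2L1 and BIRC2 had mean ratios above 1. The messages of BCL2 and PMAIP1 were not measurable with these probes. These changes are log2 ratios of knockdown over control after loess normalization of each array, tested per probe with limma and Benjamini-Hochberg adjustment over all 18143 tested probes at a threshold of 0.05. By this rule 2 of the 8 tested member probes rose, where 9.72% of all tested probes rose. None of the 8 fell, where 8.65% of all tested probes fell. Limma's unadjusted p was under 0.05 for 3 member probes below 0 and for 2 above it. Of all 18143 tested probes, 3064 below 0 and 3320 above it had such a p. The member probes below 0 were BAK1 and MCL1 A_24_P319635 and A_24_P336754, so MCL1 was counted more than once. In either direction 25% of the member probes and 18.4% of all tested probes were called, a difference that rests on so few probes that nothing can be read from it. Over the whole array 52.9% of the calls were rises, against 98.4% with median centring of each array and 74.2% with centring on the tested probes. The median log2 ratio of the 8 probes was 0.053, against 0.018 for all tested probes.

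**Figure D1:**
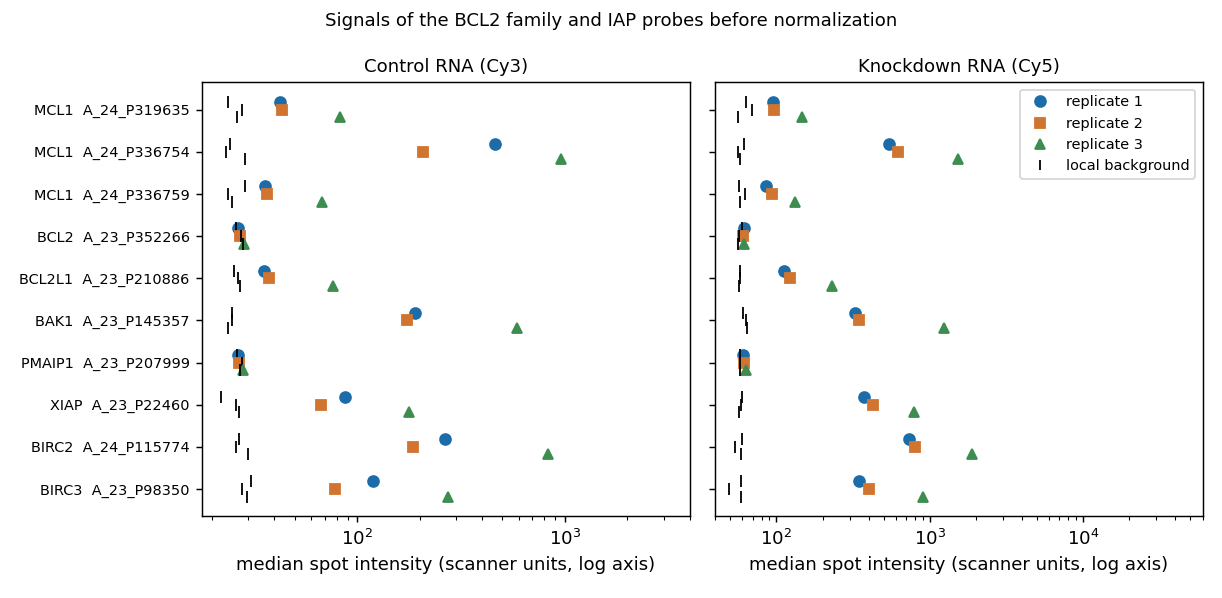
Median spot intensity of each probe (symbols, scanner units on a log axis, mean over the spots of a probe) with its local background (bars), for control RNA in Cy3 and knockdown RNA in Cy5 on replicates 1 to 3. The BCL2 and PMAIP1 probes sit on their local background in both channels, and replicate 3 is the brightest array for every other probe.

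XIAP (NM_001167) was measured by the single probe A_23_P22460. Its control intensities were 87.5, 67 and 178.5 on replicates 1, 2 and 3, over local backgrounds of 22, 26 and 27. The knockdown intensities were 372, 427 and 784, over backgrounds of 59.5, 59 and 57. Both dyes exceeded background on each array, so the ratio was measured on both sides. The log2 ratios were 0.81, 0.89 and 0.71, which lie within a narrow band well above 0 on all 3 arrays. Their mean was 0.80 ± 0.09 (SD, n = 3), with a 95% interval of 0.55 to 1.05, or 1.47-fold to 2.07-fold. Limma's adjusted p was 0.0162. The mean ratio was larger for 4.89% of all tested probes, so XIAP lay among the more strongly raised messages but not at the extreme.

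The XIAP ratio stood above that of the typical probe before any normalization as well. After subtraction of the local background alone, the log2 of Cy5 over Cy3 was 2.25, 3.17 and 2.26 for XIAP, against array medians of 1.30, 1.96 and 1.44 over the tested probes. The red channel was thus the brighter for most probes, and XIAP exceeded that general offset on every array. So did the dimmer BCL2L1 probe, with 2.43, 2.56 and 1.80, although it was not called after loess. Exceeding the offset before normalization therefore does not by itself show a rise. Without replicate 2 the mean stayed at 0.76, but limma's adjusted p rose to 0.118, in a fit that called no probe of the whole array. Over all alternatives tried, the adjusted p of XIAP ranged from 0.00128 to 0.118 and its mean log2 ratio from 0.76 to 1.32.

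BIRC3 (NM_001165), the inducible member of the cIAP pair, was measured by probe A_23_P98350. Control intensities were 119, 78 and 274 and knockdown intensities 343, 404 and 908, all well above background. The log2 ratios were 0.44, 0.71 and 0.36 on replicates 1, 2 and 3, with replicate 2 the highest and all arrays above 0. Their mean was 0.50 ± 0.18 (SD, n = 3), with a 95% interval of 0.22 to 0.79 and a limma adjusted p of 0.0401.  The BIRC3 call lay close to the threshold. Leaving out replicate 1, 2 or 3 gave mean log2 ratios of 0.53, 0.40 and 0.57 at limma adjusted p of 0.0663, 0.203 and 0.0541, so no fit on 2 arrays kept the call. It was also lost with an offset of 0 in the background correction (0.63, adjusted p 0.0577), with the scanner software's own log ratio (0.59, 0.142) and without a filter on dim probes (0.50, 0.0566).

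BIRC2 (NM_001166), the closest relative of BIRC3, had arrays that disagreed in sign, as did 1 of the MCL1 probes. Probe A_24_P115774 exceeded background on all arrays, with control intensities of 266.5, 186 and 835.5 and knockdown intensities of 732.5, 800 and 1874.5. The log2 ratios were 0.44 and 0.49 on replicates 1 and 2 and -0.25 on replicate 3. The replicate 3 value lay on the other side of 0, and the mean of 0.23 ± 0.41 (SD, n = 3) was smaller than the spread, with a 95% interval of -0.22 to 0.67 and a limma adjusted p of 0.404. Without replicate 3 the mean was 0.46, at an adjusted p of 0.0779. The interval allows a rise of up to 1.59-fold as well as a fall to 0.861 times the control level.

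Compared within each array, XIAP exceeded BIRC2 by 0.37, 0.40 and 0.96 on the log2 scale and BIRC3 by 0.37, 0.18 and 0.35. BIRC3 exceeded BIRC2 by 0.00065, 0.22 and 0.61, so on replicate 1 those ratios were practically equal. XIAP was the highest of the IAP ratios on 3 of 3 arrays. With 3 arrays an exact 2-sided sign-flip test of such a difference cannot go below p = 0.25, and no other test of these differences was run.

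**Figure D2:**
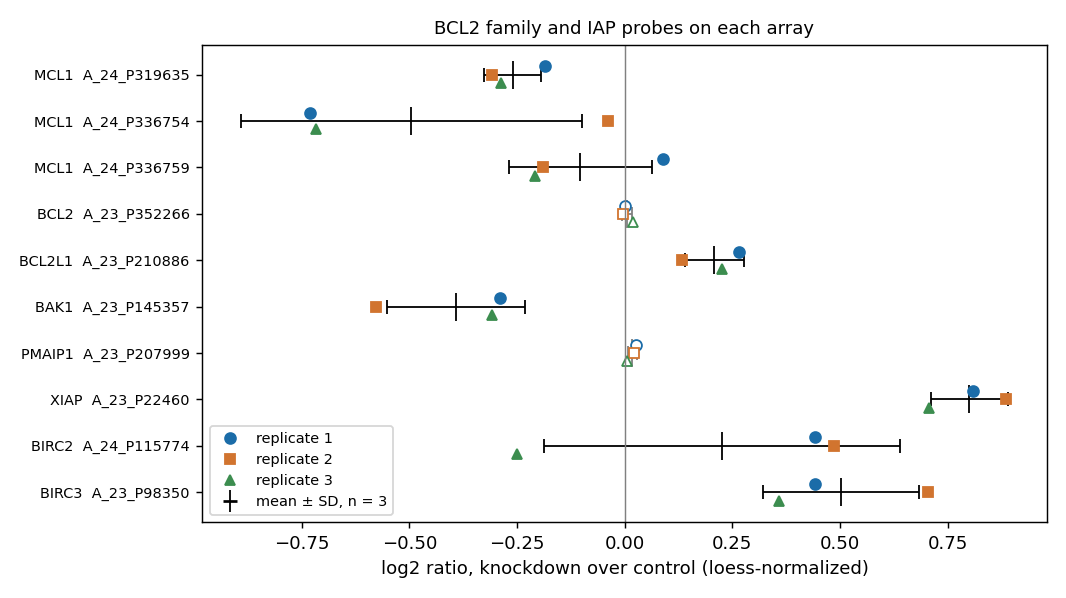
Log2 ratio of knockdown over control for each member probe on replicates 1 to 3 (symbols), with the mean and SD over the 3 arrays (black bars, n = 3). Open symbols mark the BCL2 and PMAIP1 probes, which were not above background. XIAP and BIRC3 lie above 0 on all arrays, BAK1 and 2 MCL1 probes below 0 on all arrays, and BIRC2 falls on both sides.

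MCL1 (NM_021960) was the only member with several probes, 3 in all. The brightest, A_24_P336754, had control intensities of 461, 209 and 960 and knockdown intensities of 545, 618 and 1531. Its log2 ratios were -0.73, -0.038 and -0.72, so replicates 1 and 3 were low and replicate 2 was near 0. The mean was -0.50 ± 0.40 (SD, n = 3), or 0.709 times the control level, with a 95% interval of -0.92 to -0.067 and a limma adjusted p of 0.104. On replicate 2 the control intensity was the lowest of the arrays, while the knockdown intensity exceeded that of replicate 1. The same held for XIAP, BIRC3, BIRC2 and BAK1, so it was not particular to this probe, and BAK1 had its lowest ratio on replicate 2. Without replicate 2 the mean of the brightest MCL1 probe was -0.72, at a limma adjusted p of 0.120.

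The other MCL1 probes lay closer to their local background. A_24_P319635 had control intensities of 42.5, 43.5 and 83 over backgrounds of 24, 28 and 26.5, and log2 ratios of -0.18, -0.31 and -0.29. Its mean was -0.26 ± 0.066 (SD, n = 3) at a limma adjusted p of 0.124. A_24_P336759 passed background with control RNA on 2 of 3 arrays and with knockdown RNA on all, so it was tested through the knockdown channel alone. It had log2 ratios of 0.088, -0.19 and -0.21 (mean -0.10 ± 0.17, SD, n = 3) and an adjusted p of 0.550. All MCL1 probes had means below 0, and no MCL1 probe passed the test. The probes did not order the arrays alike. On replicate 1 the brightest probe lay 0.55 and 0.82 below the other two, and on replicate 2 it lay 0.27 and 0.15 above them. The files do not say which part or splice form of the MCL1 message each probe covers. With an offset of 50 in the background correction, ratios of dim probes are drawn toward 0: with an offset of 0, A_24_P319635 had a mean of -0.62, larger than the -0.56 of the brightest probe.

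BCL2L1 (NM_138578), the message of the survival protein BCL-XL, was measured by A_23_P210886, which is printed as 10 spots. Its mean control intensities were 35.7, 37.7 and 76.7 and its knockdown intensities 113, 122 and 229. In the control channel 2 of 10 spots were well above background on replicate 1 and all 10 on replicates 2 and 3, and in the knockdown channel all 10 on every array. The probe thus met the filter for testing through the knockdown channel alone, which can favour a ratio above 0. The log2 ratios were 0.26, 0.13 and 0.23, all above 0 and close to each other. Their mean was 0.21 ± 0.068 (SD, n = 3), with a 95% interval of -0.035 to 0.45 and a limma adjusted p of 0.190. The repeated spots show how precisely a single array measured this probe. Spots varied within an array with an SD of 0.10, 0.12 and 0.071, and 9 of the 9 spots kept on replicate 1, 8 of 10 on replicate 2 and 10 of 10 on replicate 3 lay above 0. The spots of an array share 1 RNA and are not replicates of the knockdown. The mean ratio ranged over the alternatives from 0.13 with centring on the tested probes to 0.75 with the scanner software's log ratio, and its adjusted p ranged from 0.0778 to 0.478.

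BAK1 (NM_001188), the effector that the survival proteins restrain, had the lowest p among the members with ratios below 1, yet did not pass the threshold. Probe A_23_P145357 had control intensities of 190, 174 and 591.5 and knockdown intensities of 323, 347 and 1245. The log2 ratios were -0.29, -0.58 and -0.31, all below 0, with replicate 2 the lowest. The mean was -0.39 ± 0.16 (SD, n = 3), or 0.762 times the control level, with a 95% interval of -0.67 to -0.11 and a limma adjusted p of 0.0653. With array weights the mean of -0.45 reached an adjusted p of 0.0366. With median centring in place of loess it turned to 0.19, at an adjusted p of 0.412. BCL2L1 exceeded BAK1 by 0.55, 0.71 and 0.54 on the 3 arrays, and under median centring BCL2L1 had 0.52, 0.52 and 0.29 where BAK1 had 0.28, 0.38 and -0.085.

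BCL2 (NM_000633) and PMAIP1 (NM_021127) gave no usable signal although each probe was printed 10 times. For BCL2, probe A_23_P352266 had mean control intensities of 26.8, 27.5 and 28.4 against local backgrounds of 26.2, 27.8 and 28.4, and knockdown intensities of 61.8, 60.4 and 61.3 against 59.6, 57.4 and 56.6. For PMAIP1, probe A_23_P207999 had control intensities of 26.6, 27.0 and 28.3 and knockdown intensities of 60.9, 61.3 and 63.8. Not 1 of the spots was well above background in either channel of any array: 0 of 10 for both probes. The 153 negative control spots had median intensities of 26, 27 and 27 in the control channel and 60.5, 59 and 59 in the knockdown channel, in the same range. No fold change can be given for these messages. Whether they were scarce in heavy polysomes or poorly matched by a human probe was not tested.

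**Figure D3:**
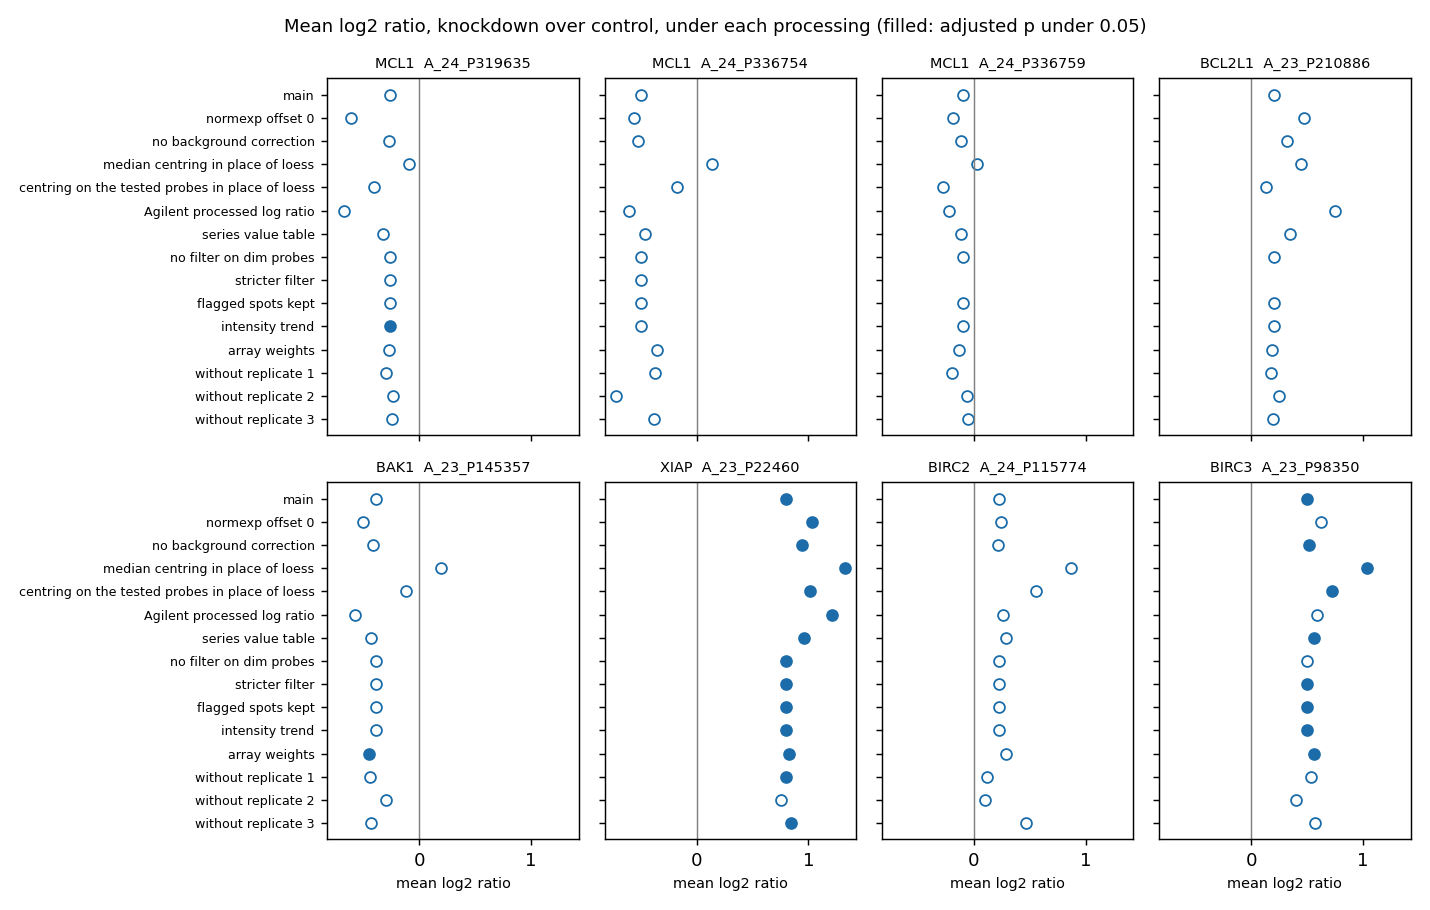
Mean log2 ratio of the 8 tested member probes (x axis) under the main processing and each alternative (y axis), where filled symbols mark a limma adjusted p under 0.05. XIAP is filled in all settings except that without replicate 2, whereas BIRC3 loses its call in 6 settings. BAK1 and 2 MCL1 probes cross 0 under median centring, and BCL2L1 and MCL1 A_24_P336759 have no point under the stricter filter.

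The directions of the members rested on the normalization to different degrees. Centring each array on its median, instead of fitting a loess curve that follows the dye balance along the brightness range, moved the median of all tested probes from 0.018 to 0.30. Under it XIAP had 1.35, 1.77 and 0.85 on replicates 1, 2 and 3, BIRC3 0.99, 1.60 and 0.53, and BIRC2 1.04, 1.54 and 0.021, all above that shift in the mean. The brightest MCL1 probe had -0.13, 1.00 and -0.45 and BAK1 0.28, 0.38 and -0.085, with means of 0.14 and 0.19 that are below the shift of 0.30. BCL2L1, which is not an IAP, had a mean of 0.44, also above the shift. In their means, the IAP messages and BCL2L1 thus lay on the high side of all tested probes. The brightest MCL1 probe and BAK1 lay on the low side. The sign of the latter 2 against 0 did not hold. With centring on the tested probes, XIAP, BIRC3 and BIRC2 had means of 1.01, 0.73 and 0.55. BIRC2 was not called there (limma adjusted p 0.101) and was -0.092 on replicate 3. The brightest MCL1 probe had a mean of -0.17 and BAK1 -0.12 (limma adjusted p 0.563 and 0.500). On replicate 2 that MCL1 probe had 0.48. The authors' deposited series table gave means of 0.96 for XIAP, 0.57 for BIRC3, 0.28 for BIRC2, -0.46 for the brightest MCL1 probe and -0.43 for BAK1.

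Other genes of the apoptosis pathway were examined through a list of 42 symbols with their RefSeq accessions. The pairing of these accessions with symbols is that of the list and was not checked against an annotation. Of the accessions, 39 were on the array and 28 had a tested probe, each represented by its brightest. Among the 28, 4 rose and 5 fell, where 9.93% of all tested accessions rose and 9.33% fell, and 19 were not called. The median log2 ratio was -0.029, against 0.010 for all tested accessions. The counts turned with the normalization: median centring gave 8 risen and 0 fallen, with a median of 0.45, and centring on the tested probes gave 7 and 2, with a median of 0.13. Without replicate 2 limma called 0 in either direction, in a fit where 2228 risen and 2010 fallen probes of the whole array had an unadjusted p under 0.05.

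Among the BCL2 relatives, BCL2L2 (BCL-W, a survival protein, NM_004050) rose, at log2 ratios of 0.75, 0.67 and 0.67 with mean 0.70 ± 0.046 (SD, n = 3; limma adjusted p 0.0179). BCL2L12 (NM_138639) fell with -1.44, -1.19 and -0.75, a mean of -1.13 ± 0.35 (SD, n = 3; 0.0181), and under median centring its mean was -0.37 with the call lost (limma adjusted p 0.234). Of the 7 tested BH3-only and other death-promoting relatives, 1 rose and 1 fell. Of all tested accessions 9.93% rose and 9.33% fell, so nothing can be read from so small a count. BBC3 (PUMA, a BH3-only target of p53, NM_014417) fell with -1.53, -1.003 and -0.78, a mean of -1.10 ± 0.39 (SD, n = 3; limma adjusted p 0.0204), and its second tested probe fell too, by 0.96 (0.0317). The first BBC3 probe was bright, with control intensities of 39127, 15923 and 25717.5 and knockdown intensities of 24984, 29958 and 56370. On replicates 2 and 3 the knockdown channel was thus the brighter before normalization. Under median centring the mean of this probe was -0.13 and under centring on the tested probes -0.44, with the call lost in both. The second BBC3 probe was not examined under another centring. BNIP3 (a mitophagy receptor, NM_004052) rose by 0.54 ± 0.23 (SD, n = 3; 0.0419), and its call was lost in 7 of 14 alternatives. BAD, BCL2L11 (BIM), BCL2L13, BNIP3L and HRK had means between -0.085 and 0.36 and were not called.

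Further down the pathway the messages did not move in a common direction. CYCS (cytochrome c, NM_018947) rose, at log2 ratios of 0.98, 0.95 and 1.22 with mean 1.05 ± 0.15 (SD, n = 3; limma adjusted p 0.0151). Its other tested probes had means of 1.07 (0.0229) and 0.39 (0.0592). CYCS has many processed pseudogenes, whose transcripts a probe may share. CASP8, the initiator caspase of death receptors (NM_033355), rose with 1.03, 1.83 and 0.74, a mean of 1.20 ± 0.56 (SD, n = 3; limma adjusted p 0.0279). Its call was lost with no filter on dim probes (adjusted p 0.0683) and without replicate 2 (mean 0.89, 0.117). FADD, the adaptor that recruits CASP8 (NM_003824), fell with -0.40, -0.83 and -0.64, a mean of -0.63 ± 0.21 (SD, n = 3; 0.0300). DFFB (the apoptotic nuclease, NM_004402) fell by 0.50 ± 0.15 (SD, n = 3; 0.0356). Its probe was dim, with control intensities of 61, 44 and 93 and knockdown intensities of 78, 83 and 152. The size of its fall depended on the processing, with means of -1.16 with an offset of 0 and -1.72 with the scanner software's log ratio. CASP9, the initiator caspase of the apoptosome (NM_001229), fell by 0.49 ± 0.016 (SD, n = 3; 0.0292) and is named because it completes the 5 that fell, a choice made after its value was seen. The calls of FADD, DFFB and CASP9 were lost without replicate 2, without replicate 3 and under median centring, where the means were -0.086, -0.32 and -0.11. Those of DFFB and CASP9 were also lost without replicate 1, and those of FADD and CASP9 with centring on the tested probes (-0.40 and -0.42, limma adjusted p 0.0745 and 0.0514).

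Among the remaining IAPs and the death receptors with their adaptors, FADD was the only call. Of all tested accessions 9.93% rose and 9.33% fell. BIRC6 (a giant IAP, NM_016252) had log2 ratios of 0.34, 0.28 and 0.34, averaging 0.32 ± 0.034 (SD, n = 3; limma adjusted p 0.0727). Its control intensities were low, at 40, 37 and 50, and the offset of 50 draws such ratios toward 0. The spread of BIRC6 with an offset of 0 was not examined. BIRC7 had a mean of 0.12 (limma adjusted p 0.457). Of these 2 accessions 0 were called by limma, and 1 had an unadjusted p under 0.05. All 6 tested accessions of death receptors and their adaptors had means below 0 after loess, where 52.5% of all tested probes had means above 0. Apart from FADD, which was -0.086 under median centring, they ranged from -0.47 for RIPK1 (limma adjusted p 0.0560) to -0.0059 for TNFRSF1A. The 95% intervals of TNFRSF1A, TNFRSF10A and TNFRSF10B spanned 0, and those of RIPK1 and TRADD did not. The signs of those 5 under another centring were not examined.

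**Figure D4:**
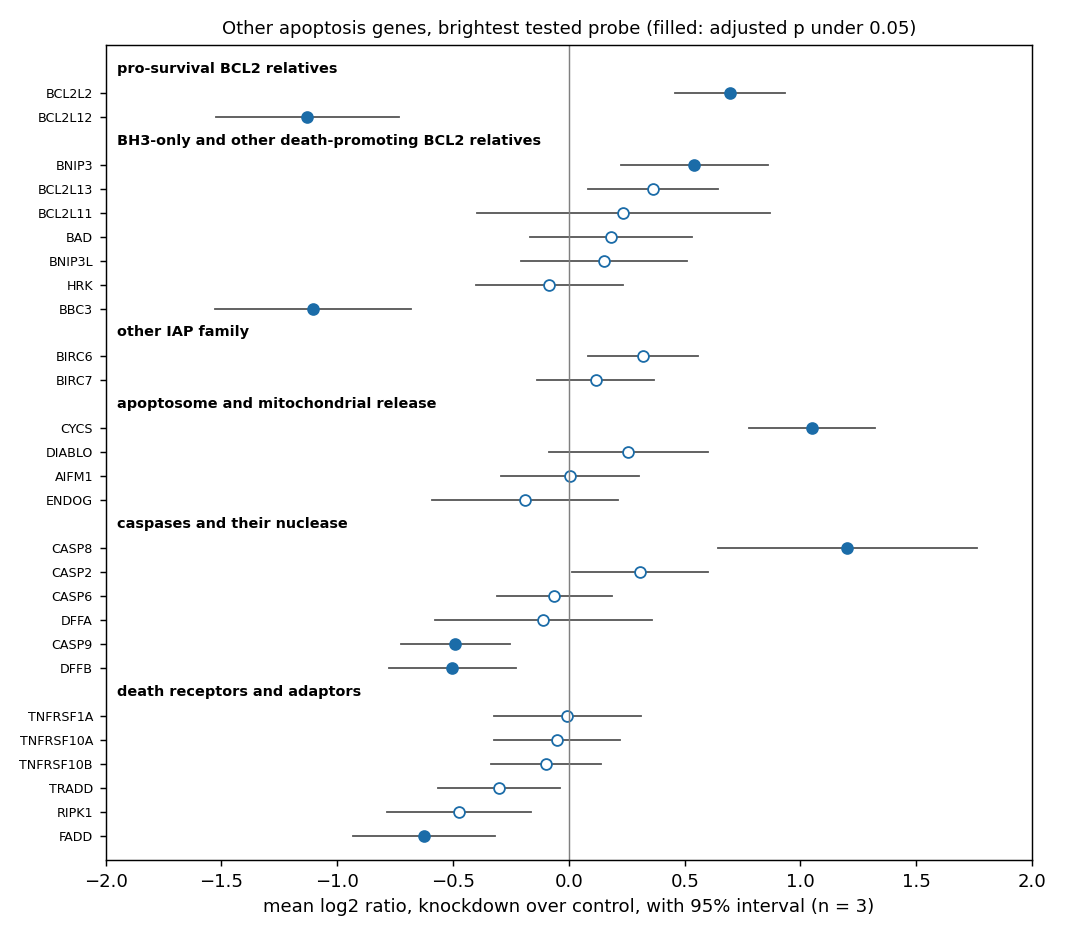
Mean log2 ratio of knockdown over control (x axis) with its 95% interval (lines, n = 3) for the other apoptosis accessions reported here, grouped by role, where filled symbols mark a limma adjusted p under 0.05. CASP8, CYCS, BCL2L2 and BNIP3 lie above 0 and BCL2L12, BBC3, FADD, DFFB and CASP9 below it among the called accessions.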

How the data were processed

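Heavy polysome RNA was measured on 3 arrays of 2 colours (Agilent design 014850), 1 per biological replicate. Spot intensity comes from Feature Extraction 10.9.1.1, per the file headers, and limma is also named in the submitters' processing notes. The deposited log10 ratio is that of Agilent's processed signals. The authors' deposited series table holds log2 ratios with unstated scale and direction. They followed loess ratios without background correction (Pearson's r of 0.995, 0.994 and 0.994 on replicates 1 to 3, medians of 0, 0.01 and 0.01), so knockdown over control, centred near 0.

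Median spot and local background intensities were corrected with normexp (offset 50) and normalized by loess with control spots at weight 0, in R 4.3.3 with limma 3.58.1. Spots with outlier flags were left out (142 to 150 per array, of which 0 to 3 were member spots), none was saturated, and repeated spots were averaged. Testing required a probe to exceed background in 1 channel or both on all 3 arrays (IsWellAboveBG). lmFit and eBayes on an intercept gave 2-sided p-values, adjusted over all tested probes. An accession of the wider list was represented by its brightest tested probe. The fit was also run on simulated data with known shifts, independent noise and no dye effect. That run checks the code and is no support for the results given here. The number of arrays limits the precision. All members were named, and of the wider list the 4 largest called rises and falls. Its other accessions (CASP9 and those not called) were named after their values were seen. The members and lists were chosen with earlier results of these data known. Of the wider list, 1 accession enters the counts and is not reported here.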

Additional observations from a re-analysis of the deposited data

How the results depend on the processing

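XIAP kept its direction in 14 of 14 alternatives and its call in 13, and BIRC3 kept its direction in 14 and its call in 8. Leaving out a replicate gave XIAP mean log2 ratios of 0.76 to 0.85 and BIRC3 0.40 to 0.57, and 0 to 1 member probes risen, with 0 without replicate 2. BIRC3 lost its call with normexp offset 0 (0.63), Agilent's processed log ratio (0.59) and no filter on dim probes (0.50), each of which left 1 risen member probe. The intensity trend called 1 fallen member probe, MCL1 A_24_P319635 at -0.26 (limma adjusted p 0.0277), and array weights called 1, BAK1 at -0.45. Median centring reversed MCL1 A_24_P336754 to 0.14, MCL1 A_24_P336759 to 0.031, BAK1 to 0.19 and the RHA probes to 0.068 and 0.26. Over the whole array, risen and fallen probes numbered 3561 and 59 with median centring, 3001 and 2523 with the intensity trend, and 1066 and 997 with no filter, beside 3127 risen with centring on the tested probes, 2891 with offset 0 and 2809 with Agilent's log ratio, and 0 to 1502 risen and 0 to 1419 fallen without a replicate. In the fit without replicate 2, where limma called 0, 2228 risen and 2010 fallen probes had an unadjusted p under 0.05. The wider list had 8 risen and 0 fallen accessions and a median of 0.45 with median centring, 7 and 2 with 0.13 with centring on the tested probes, and without a replicate 0 to 3 risen, 0 to 3 fallen and medians of -0.049 to 0.036, the last without replicate 2. Some settings also differ in the number of probes tested or of arrays used, and the cause of these differences was not tested. Under the stricter filter BCL2L1 and MCL1 A_24_P336759 were not tested. Each ratio already pairs knockdown with control on its own array, and the limma fit used these within-array pairs. No further paired analysis was possible because the 3 arrays are a single group with no second group to block on.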
